A study of Mus musculus with 36 samples.

Results

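Mouse embryonic fibroblasts lacking both MLL3 and MLL4 were sequenced without reprogramming factors and, in a separate library, 20 days after the factors were delivered. The comparison asks how far expression differed between these double-knockout libraries. The labels do not say whether both came from the same culture. The members were chosen by their labels alone and are 2 of the 36 samples of the series, 1 library a side, so every statement is on the size of a difference and no test was possible. The day-20 library came from MLL3-/-;MLL4-/- fibroblasts infected with lentiviruses for Oct4, Sox, Klf4 and c-MYC and moved to medium with LIF soon after infection. The Sox gene delivered is not named further in the labels, and it was read as Sox2. The library set against it came from MLL3-/-;MLL4-/- fibroblasts grown in serum-containing DMEM without factors. Both lines were immortalised, per the series' design text, and the sources used here do not say how, or whether a line is 1 clone or several pooled cultures. The medium changed together with the factors, so the effects of the factors and of the medium cannot be told apart. Values from MLL3-/-;MLL4flox/flox cells at the same stages, called f/f cells, and from replicate 2 of MLL3-/-;MLL4-/- embryonic stem cells (ESC) are given beside them. All of these cells lack MLL3, and no library of cells with both genes intact was used.

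Oct4, Sox2, Klf4 and c-Myc together can turn fibroblasts into induced pluripotent stem cells. In this process fibroblast genes are shut down, an epithelial programme that includes E-cadherin and keratins is switched on early, and the cells' own pluripotency genes become active late. MLL3 and MLL4, encoded by Kmt2c and Kmt2d, are methyltransferases of histone H3 lysine 4 that place monomethylation at enhancers and help to activate cell-type genes.

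Values are FPKM, fragments per kilobase of transcript scaled to the mapped reads of the library, as deposited. The depth recovered from the steps of low values was 23413352 reads at day 20 and 38264157 reads in fibroblasts. At least 1 FPKM was reached by 11815 genes at day 20 and by 11661 genes in fibroblasts. Reads per gene were recovered in the same way, and intervals of a ratio are 95% intervals from those reads that cover counting error only, not the spread between cultures. Kmt2d stood at 24.8 FPKM at day 20 and 23.5 FPKM in fibroblasts, against 12.9 FPKM in f/f cells at day 20 and 14.4 FPKM in f/f fibroblasts. Kmt2c stood at 2.89 FPKM at day 20 and 3.06 FPKM in fibroblasts. Whole-transcript values do not isolate the deleted exons, so neither gene checks the genotype labels.

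The library labelled D20 iPSC did not show the markers of pluripotent cells. Of 11 pluripotency markers, 5 were at 0 FPKM at day 20, and 10 were below 1 FPKM. Zfp42, Dppa4, Utf1, Sall4 and Lin28a had no read in either library. A count of 0 allows up to 3 reads, which for Zfp42 is 0.0711 FPKM at day 20 and 0.0435 FPKM in fibroblasts. The summed level over the 11 markers was 10.2 FPKM at day 20 and 7.34 FPKM in fibroblasts, against 2637 FPKM in ESC of the same genotype. Nanog, the homeodomain factor of the pluripotency core, made up most of both sums, with 9.68 FPKM at day 20 and 7.17 FPKM in fibroblasts. It stood at 7.26 FPKM in f/f fibroblasts and at 326 FPKM in ESC, and Nanog has near-identical pseudogene copies, so its low values are uncertain. The 11 fibroblast markers summed to 9667 FPKM at day 20 and 2788 FPKM in fibroblasts, none at 0, and the 3 collagen chains among them made up most of both sums. Some of the other markers were low, with Thy1 at 1.08 FPKM at day 20 and 0.482 FPKM in fibroblasts. Lum stood at 1.75 and 2.00 FPKM at the same stages, against 168 and 52.7 FPKM in f/f cells. Prrx1 fell, with 30.5 FPKM at day 20 and 102 FPKM in fibroblasts. All markers but Lum and Prrx1 were higher at day 20. The library is therefore called day 20 here and not by a cell type. In bulk samples, fewer cells of a type and less RNA per cell cannot be told apart.

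**Figure D1:**
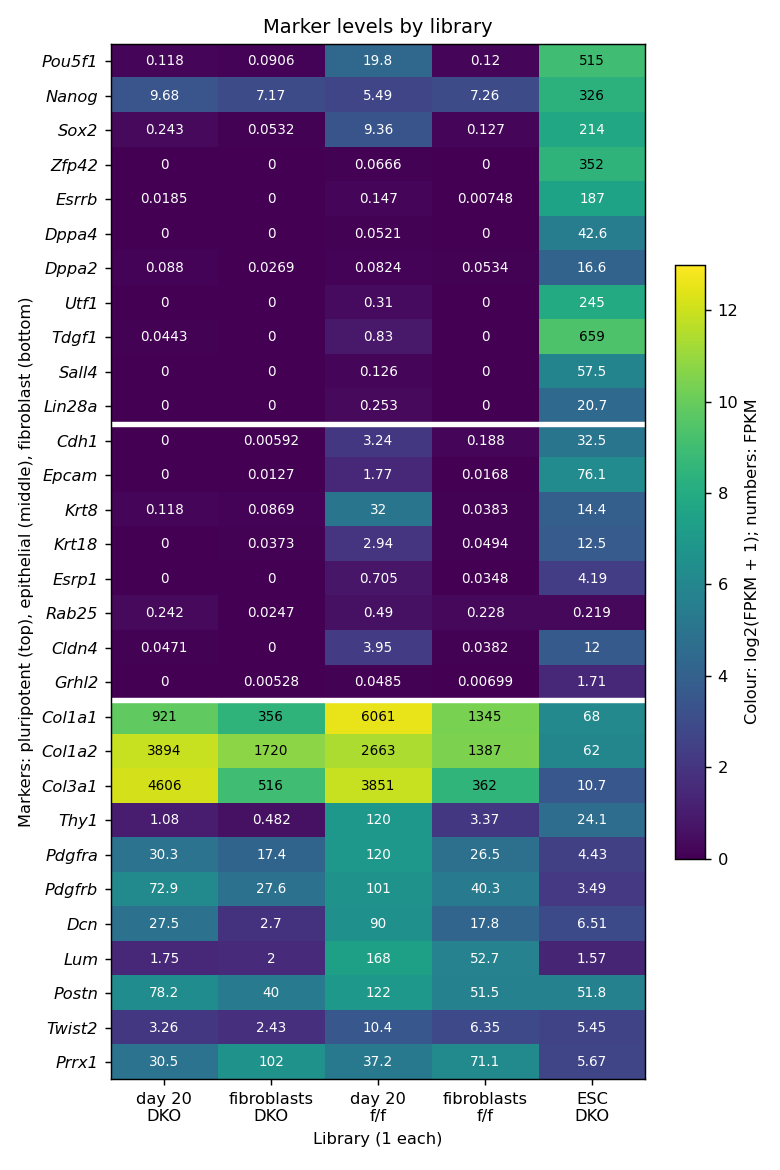
Marker levels in 5 libraries, 1 column each: day 20 and fibroblasts of the double knockout (DKO), day 20 and fibroblasts of f/f cells, and DKO ESC. Numbers are FPKM and colours log2(FPKM + 1). In both DKO columns on the left the pluripotency and epithelial rows are at or near 0 apart from Nanog, and the collagen rows are high.

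None of the 4 delivered factors rose by 2-fold on the log2(FPKM + 1) scale, and Pou5f1 and Sox2 stayed below 1 FPKM in both libraries. Pou5f1, the gene of Oct4, stood at 0.118 FPKM at day 20 (4 reads) and 0.0906 FPKM in fibroblasts (5 reads), a difference not detectable at this depth. It stood at 19.8 FPKM in f/f cells at day 20 and at 515 FPKM in DKO ESC. Sox2 stood at 0.243 FPKM at day 20 (14 reads) and 0.0532 FPKM in fibroblasts (5 reads), a ratio of 4.58 with an interval of 1.56 to 16.2. Both Sox2 values were small beside 9.36 FPKM in f/f cells at day 20. Klf4 fell, with 8.38 FPKM at day 20 and 21.9 FPKM in fibroblasts, and was 2.62-fold lower (interval 2.39 to 2.87). Klf4 in f/f cells stood at 17.9 FPKM at day 20 and 18.8 FPKM in fibroblasts. Myc was high in both libraries, with 105 FPKM at day 20 and 106 FPKM in fibroblasts, a ratio with an interval of 0.967 to 1.03. Myc in f/f cells stood at 30.7 FPKM at day 20 and 26.4 FPKM in fibroblasts. Reads of a delivered copy and of the cell's own gene cannot be told apart in these values.

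Most genes stood at similar levels at day 20 and in fibroblasts. Of 24284 genes in the table, 11830 had a mean of at least 1 FPKM over the 2 libraries and entered the comparison. Differences are day 20 minus fibroblasts on the log2(FPKM + 1) scale, which understates changes of low genes, and a gene is said to rise or fall when it differed by at least 2-fold on that scale. By that rule 524 genes rose (4.43% of those entered) and 444 genes fell (3.75%). So 8.18% changed in either direction and 10862 genes stayed within 2-fold. Counts in the gene lists below are to be read beside these shares. At least 4-fold, 62 genes rose (0.524%) and 39 genes fell (0.33%). The median difference was -0.02, and the middle 90% of genes lay between -0.91 and 0.94. Increases made up 54.1% of the genes that changed, but 42.1% when FPKM values were divided by their sum (TPM), where the same pseudocount and filter let 13031 genes enter and the median of all genes was -0.12. With day-20 values only scaled to the fibroblast sum, an alternative chosen after seeing the data, 11762 genes entered, the share was 41.2% and the median again -0.12. In f/f cells 7.17% of 12435 genes entered rose and 5.75% fell, with 1.92% rising and 0.82% falling at least 4-fold. Whether the genotypes differ in the number of changed genes was not tested, since each has 1 library a stage. Across all genes, Pearson's r of log2(FPKM + 1) between day 20 and fibroblasts was 0.980 in DKO cells and 0.963 in f/f cells. The DKO day-20 library stood at r = 0.873 with DKO ESC, and the DKO fibroblast library at r = 0.888. These correlations are descriptions across genes, which are not independent replicates.

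**Figure D2:**
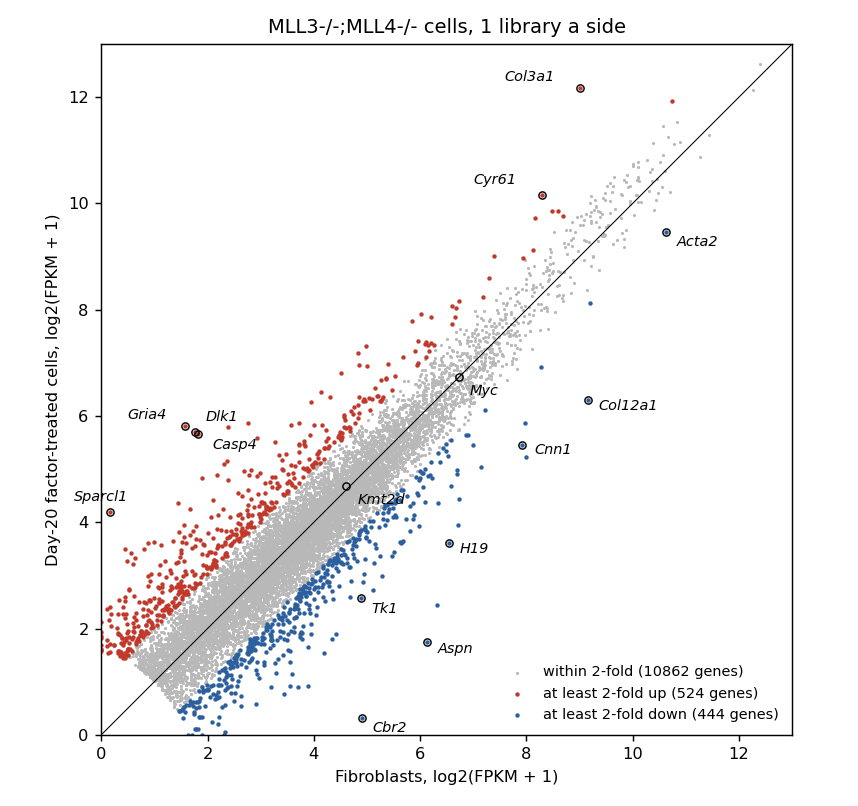
Level at day 20 (vertical) against the level in fibroblasts (horizontal) of the 11830 genes entered, both log2(FPKM + 1), 1 library an axis. Red points rose and blue points fell at least 2-fold, grey points stayed within 2-fold, and the corner near 0 is empty because genes under a mean of 1 FPKM were left out. Most points lie along the diagonal, with Col3a1 and Gria4 above it and Cbr2 and Aspn below it.

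The largest increases were in genes of unlike function, from a neuronal receptor to matrix proteins. Gria4, a subunit of AMPA-type glutamate receptors, stood at 55.2 FPKM at day 20 and 1.97 FPKM in fibroblasts, 28.0-fold higher (interval 25.5 to 30.8). Gria4 in f/f cells stood at 0.175 FPKM at day 20 and 0.281 FPKM in fibroblasts. Sparcl1, a secreted matricellular protein, rested on 1258 reads at day 20 and 15 reads in fibroblasts, or 17.2 FPKM at day 20 and 0.126 FPKM in fibroblasts, and its ratio had an interval of 82.8 to 246. The imprinted gene Dlk1, an inhibitor of adipocyte differentiation, stood at 50.9 FPKM at day 20 and 2.38 FPKM in fibroblasts. Casp4, the caspase that senses cytosolic lipopolysaccharide, stood at 49.4 FPKM at day 20 and 2.54 FPKM in fibroblasts. Ccdc37, a coiled-coil gene, stood at 54.3 FPKM at day 20 and 4.24 FPKM in fibroblasts. Igfbp3, which binds insulin-like growth factors, stood at 57.2 FPKM at day 20 and 5.74 FPKM in fibroblasts, and rose in f/f cells too, to 100.4 FPKM against 3.15 FPKM. The other large increases were in Dcn, Rgs16, Fap, Car6, Vcam1, Col5a3, Gda and Leprel1, with log2 differences between 2.71 and 2.95. Of these, Rgs16 accelerates the shut-off of G protein signals and stood at 19.6 FPKM at day 20 and 1.71 FPKM in fibroblasts. Gda, the guanine deaminase, stood at 11.2 FPKM at day 20 and 0.835 FPKM in fibroblasts. Car6, a secreted carbonic anhydrase, stood at 8.70 FPKM at day 20 and 0.401 FPKM in fibroblasts.

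Gria4 was not alone among glutamate receptor subunits. Of 18 ionotropic subunit genes in the table, 8 entered, and 3 of them rose, Gria4 included, and none fell. Over all genes entered, 4.43% rose and 3.75% fell. The AMPA subunit gene Gria3 stood at 14.1 FPKM at day 20 and 2.43 FPKM in fibroblasts. The kainate subunit gene Grik2 stood at 6.90 FPKM at day 20 and 0.842 FPKM in fibroblasts. In f/f cells Grik2 stood at 0.0656 FPKM at day 20 and 0.192 FPKM in fibroblasts, and Gria3 at 11.1 FPKM and 6.01 FPKM at the same stages. This gene family was picked after its values were seen. Of the 18 neural genes listed, 7 entered, 1 rose (Gap43, a growth cone protein, 11.9 FPKM at day 20 and 4.84 FPKM in fibroblasts) and 1 fell (Map2, a dendritic microtubule protein, 2.48 FPKM at day 20 and 9.89 FPKM in fibroblasts).

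The largest decreases included secreted matrix and mesenchymal genes. Cbr2, a carbonyl reductase, fell to 0.251 FPKM at day 20 (6 reads) against 28.8 FPKM in fibroblasts (1125 reads), 115-fold lower (interval 52.5 to 313). Aspn, the small leucine-rich proteoglycan asporin, stood at 2.36 FPKM at day 20 and 69.2 FPKM in fibroblasts, 29.3-fold lower (interval 24.6 to 35.1). Aspn in f/f cells stood at 69.1 FPKM at day 20 and 62.8 FPKM in fibroblasts. Egfl6, a secreted EGF-repeat protein, stood at 4.41 FPKM at day 20 and 79.1 FPKM in fibroblasts. The imprinted long noncoding RNA H19 stood at 11.3 FPKM at day 20 and 92.0 FPKM in fibroblasts. Hey1, a transcriptional repressor downstream of Notch, stood at 0.872 FPKM at day 20 and 11.9 FPKM in fibroblasts. Fhl1, a LIM-domain protein of muscle and stress fibres, stood at 36.4 FPKM at day 20 and 253 FPKM in fibroblasts. Il1rn, the secreted antagonist of the interleukin-1 receptor, stood at 2.49 FPKM at day 20 and 19.3 FPKM in fibroblasts, and fell in f/f cells too, to 12.5 FPKM against 179.8 FPKM. The other large decreases were in C1ql3, Col12a1, Ogn, Cdo1, Nell2, Gfra1, Cdh2 and Cnn1, with log2 differences between -2.96 and -2.47. Of these, Cdo1, the cysteine dioxygenase, stood at 0.698 FPKM at day 20 and 9.86 FPKM in fibroblasts. Gfra1, a co-receptor for the ligand GDNF, stood at 0.881 FPKM at day 20 and 10.7 FPKM in fibroblasts.

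**Figure D3:**
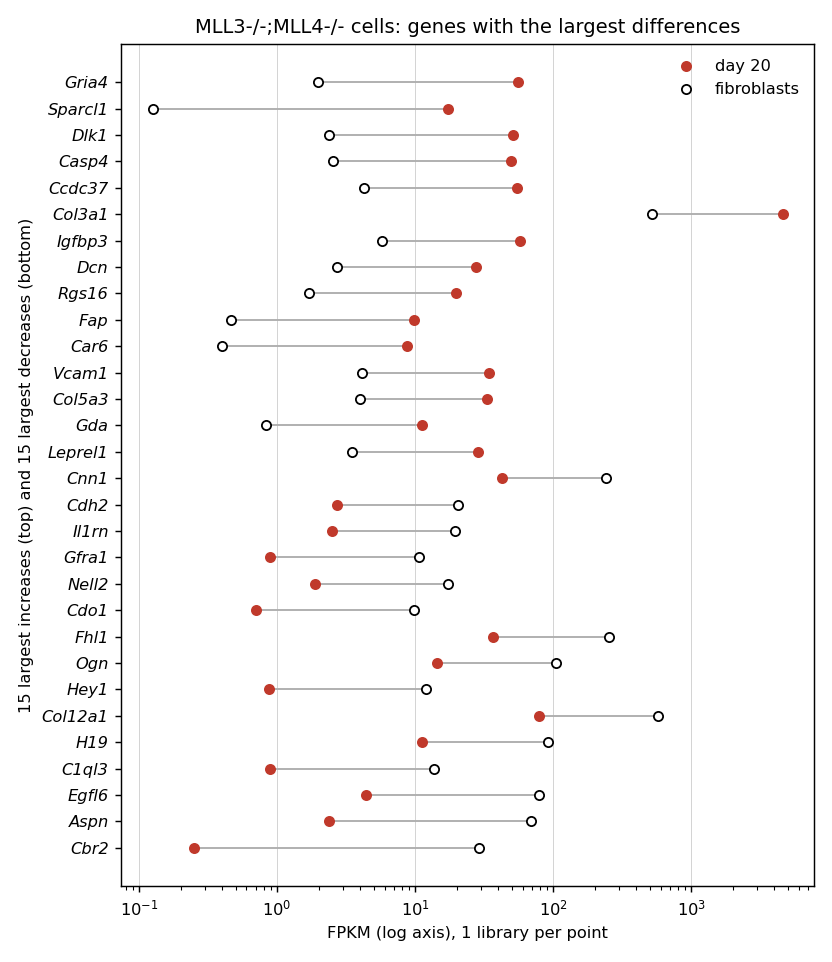
FPKM (log axis) at day 20 (red) and in fibroblasts (open) of the 15 genes with the largest increases, at the top, and the 15 with the largest decreases, at the bottom, ordered by the difference of log2(FPKM + 1), 1 library a point. Col3a1 lies far to the right of the others, at 4606 FPKM at day 20 and 516 FPKM in fibroblasts.

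Promoters of 4 genes are shown because these genes stand for the patterns described here: the largest increase, the largest decrease, the highest-level increase, and the histone genes described further on. Each runs from 250 bases before to 50 bases after the RefSeq start of the gene in GRCm38.p6, 5′ to 3′ on the gene's strand. Capitals mark matches, on either strand, to an AP-1 site (TGANTCA), an E-box (CACGTG), an octamer element (ATGCAAA) or a TATA box (TATAAA). These motifs do not overlap in the sequences printed.
Gria4 (minus strand, chr9:4796185-4796484): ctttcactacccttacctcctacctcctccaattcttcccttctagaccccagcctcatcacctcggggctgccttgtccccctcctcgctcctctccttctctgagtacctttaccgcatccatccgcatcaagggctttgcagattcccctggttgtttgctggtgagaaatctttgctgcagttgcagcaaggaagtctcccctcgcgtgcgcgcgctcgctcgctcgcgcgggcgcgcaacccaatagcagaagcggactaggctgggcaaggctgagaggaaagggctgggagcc
Cbr2 (minus strand, chr11:120731972-120732271): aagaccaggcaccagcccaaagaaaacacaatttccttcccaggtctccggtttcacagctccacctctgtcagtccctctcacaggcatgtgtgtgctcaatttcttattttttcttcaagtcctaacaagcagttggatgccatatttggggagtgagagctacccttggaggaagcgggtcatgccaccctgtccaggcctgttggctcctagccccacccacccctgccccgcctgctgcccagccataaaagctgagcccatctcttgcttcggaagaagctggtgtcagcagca
Col3a1 (plus strand, chr1:45311288-45311587): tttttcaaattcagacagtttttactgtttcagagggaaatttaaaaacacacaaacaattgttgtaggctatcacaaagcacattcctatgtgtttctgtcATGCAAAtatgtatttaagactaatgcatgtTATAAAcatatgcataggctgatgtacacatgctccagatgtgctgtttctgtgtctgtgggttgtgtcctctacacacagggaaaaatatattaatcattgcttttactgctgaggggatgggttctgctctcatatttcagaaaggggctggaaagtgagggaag
Hist1h2ak (minus strand, chr13:21753863-21754162): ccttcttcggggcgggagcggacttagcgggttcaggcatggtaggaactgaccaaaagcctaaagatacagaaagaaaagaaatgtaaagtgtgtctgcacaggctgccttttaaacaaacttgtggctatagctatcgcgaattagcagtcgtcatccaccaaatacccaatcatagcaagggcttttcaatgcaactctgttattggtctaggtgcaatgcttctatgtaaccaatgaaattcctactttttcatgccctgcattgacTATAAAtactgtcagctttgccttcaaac
The Gria4 and Cbr2 windows held no match. The Col3a1 window held an octamer element at base -148 and a TATA box at base -117 from the RefSeq start. The Hist1h2ak window held a TATA box at base 21, which lies after the RefSeq start. Over all genes, 9277 of the 11830 entered had a promoter in the table. A TATA box was held by 10.3% of 350 promoters of genes that rose and by 12.1% of 339 promoters of genes that fell, against 6.77% of promoters of all genes entered and 14.2% of all 27025 promoters in the table. An octamer element was held by 6.29% of promoters of genes that rose and by 5.31% of those that fell, against 3.22% of all entered and 4.59% of the whole table. An AP-1 site was held by 4.57% of promoters of genes that rose and 5.01% of those that fell, against 4.55% of all entered and 7.93% of the whole table. An E-box was held by 7.71% of promoters of genes that rose and 9.14% of those that fell, against 10.4% of all entered and 7.24% of the whole table. A match is a description of letters and not a bound site.

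Collagen genes rose more often than they fell. Of 21 collagens listed, 19 entered, 10 rose and 1 fell, with a median difference of 1.03 beside -0.02 over all genes. Col3a1, the chain of type III fibrils, stood at 4606 FPKM at day 20 and 516 FPKM in fibroblasts, 8.92-fold higher, and was the second highest gene of the day-20 library after Eef1a1. Col1a2 stood at 3894 FPKM at day 20 and 1720.3 FPKM in fibroblasts, and Col1a1, the other chain of type I collagen, at 921 FPKM at day 20 and 356 FPKM in fibroblasts. Type I and III chains were higher at day 20 in f/f cells too, where Col1a1 stood at 6061 FPKM at day 20 and 1345 FPKM in fibroblasts. The basement membrane chains Col4a1 and Col4a2 stood at 76.5 and 91.6 FPKM at day 20 and at 29.2 and 34.7 FPKM in fibroblasts. Col5a3, a minor chain of type V collagen, stood at 33.2 FPKM at day 20 and 3.98 FPKM in fibroblasts. Col16a1 stood at 62.4 FPKM at day 20 and 22.8 FPKM in fibroblasts, and Col14a1, Col18a1 and Col8a1 rose by less, with log2 differences of 1.20, 1.15 and 1.03. Col12a1, a fibril-associated collagen of tendon and dense tissue, ran the other way, at 78.3 FPKM at day 20 and 569 FPKM in fibroblasts, 7.27-fold lower. Over all 44 collagen chains of the table the sum was 11471 FPKM at day 20 and 4386 FPKM in fibroblasts. The list's median came under 2-fold, to 0.69, when genes needed a mean of 5 FPKM and also with no filter, and to 0.92 with day-20 values scaled to the fibroblast sum.

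Other matrix genes were divided. Of 30 matrix genes and proteoglycans listed, 27 entered, 2 rose and 5 fell, with a median difference of 0.20. Dcn, the collagen-binding proteoglycan decorin, stood at 27.5 FPKM at day 20 and 2.70 FPKM in fibroblasts, and Fbln1, fibulin 1, at 82.2 FPKM at day 20 and 35.6 FPKM in fibroblasts. Among those that fell with Aspn were the related proteoglycan gene Ogn, at 14.4 FPKM at day 20 and 104 FPKM in fibroblasts, and Fbln5, an organiser of elastic fibres, at 24.6 FPKM at day 20 and 94.6 FPKM in fibroblasts. Emilin1 and the latent TGF-beta binding protein Ltbp1 fell by less, with log2 differences of -1.17 and -1.11. Cthrc1, a secreted protein of matrix remodelling, stood at 20.6 FPKM at day 20 and 105 FPKM in fibroblasts. Of 20 matrix proteases and their inhibitors listed, 15 entered and 3 rose: Mmp2, gelatinase A, at 233 FPKM at day 20 and 72.7 FPKM in fibroblasts, Mmp11 (log2 difference 1.70) and Mmp19 (1.91).

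Fibroblast identity genes did not move one way. Of 18 listed, 10 entered, 2 rose and 1 fell, with a median difference of 0.19. Fap, a cell-surface serine protease of activated fibroblasts, stood at 9.78 FPKM at day 20 and 0.464 FPKM in fibroblasts, and the growth factor receptor gene Pdgfrb at 72.9 FPKM at day 20 and 27.6 FPKM in fibroblasts. S100a4, also known as fibroblast-specific protein, fell to 57.3 FPKM at day 20 against 252 FPKM in fibroblasts. Of 21 mesenchymal transition factors listed, 18 entered, 1 rose and 4 fell. Those that fell were Cdh2, the mesenchymal N-cadherin, at 2.73 FPKM at day 20 and 20.4 FPKM in fibroblasts, the homeobox gene Prrx1, at 30.5 FPKM at day 20 and 102 FPKM in fibroblasts, and Cdh11 and Foxc1 (log2 differences -1.24 and -1.16). Tgfb1 rose, with 28.0 FPKM at day 20 and 13.0 FPKM in fibroblasts, but its difference was 0.98 when values were divided by their sum. The repressors of E-cadherin stayed within 2-fold, with Snai2 at 88.0 FPKM at day 20 and 48.5 FPKM in fibroblasts, Zeb1 at 53.9 and 84.6 FPKM and Zeb2 at 28.7 and 14.3 FPKM at the same stages. Vim stood at 1809 FPKM at day 20 and 1233 FPKM in fibroblasts.

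Epithelial genes were not detectable or low in both libraries. Of 28 listed, 5 entered and none rose or fell, with a median difference of 0.10. Cdh1, the gene of E-cadherin, was at 0 FPKM at day 20 and 0.00592 FPKM in fibroblasts, and Epcam was at 0 FPKM at day 20 and 0.0127 FPKM in fibroblasts. In f/f cells Cdh1 stood at 3.24 FPKM at day 20 and 0.188 FPKM in fibroblasts. The 52 keratin genes of the table summed to 2.19 FPKM at day 20 and 2.49 FPKM in fibroblasts, against 181 FPKM in f/f cells at day 20 and 6.48 FPKM in f/f fibroblasts. Of 10 early reprogramming markers listed, 3 entered and none rose or fell, with the fibroblast surface gene Cd44 at 74.7 FPKM at day 20 and 125 FPKM in fibroblasts. Of 25 surface epithelium genes listed, 2 entered: Cldn1, a tight junction claudin, rose to 3.83 FPKM at day 20 against 0.250 FPKM in fibroblasts, and Perp, a desmosome protein and p53 target, fell to 0.450 FPKM at day 20 against 5.21 FPKM in fibroblasts.

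The pluripotency lists held few expressed genes. Of 19 core genes, 5 entered. The receptor gene Epha1 rose to 3.45 FPKM at day 20 against 0.854 FPKM in fibroblasts, and Mybl2, a cell cycle transcription factor, fell to 2.71 FPKM at day 20 against 10.4 FPKM in fibroblasts. Of 18 naive-state genes, 8 entered and 5 of those rose, beside 4.43% of all genes entered, with a median difference of 1.14 in DKO cells and -0.03 in f/f cells. The DKO median was 0.15 with no filter on low values. They were Klf5, a Krüppel-like factor, at 31.2 FPKM at day 20 and 9.59 FPKM in fibroblasts, Socs3, the feedback inhibitor of LIF signals, at 32.9 FPKM at day 20 and 10.9 FPKM in fibroblasts, and Spp1, the matrix protein osteopontin, at 105 FPKM at day 20 and 40.2 FPKM in fibroblasts. The other 2 were Zfp57, a zinc finger guardian of imprints, at 31.4 FPKM at day 20 and 12.9 FPKM in fibroblasts, and Jam2, a junction protein, at 3.07 FPKM at day 20 and 0.955 FPKM in fibroblasts. The 10 members that did not enter were below 1 FPKM in both libraries, and 4 of them, Tdh, Tcl1, Prdm14 and Nr0b1, were at 0 in both. A wider set, formed after values were seen, held the 928 genes at least 4-fold higher in f/f ESC than in f/f fibroblasts. Of these, 487 were below 1 FPKM in both DKO libraries, and their median over all 928 was 0.583 FPKM at day 20 and 0.457 FPKM in fibroblasts, against 12.2 FPKM in DKO ESC. In DKO cells 414 of the 928 entered, of which 52 rose (12.6%) and 42 fell (10.1%), beside 4.43% and 3.75% of all genes entered.

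The LIF pathway list, whose ligand was in the day-20 medium, had 12 of its 13 genes entered. Of these, 4 rose and none fell, beside 4.43% and 3.75% of all genes entered. The other 8 were lower at day 20 by less than 2-fold, and the median difference of the list was -0.19. Pim1, a kinase induced by STAT3, stood at 46.8 FPKM at day 20 and 6.66 FPKM in fibroblasts, 7.02-fold higher. With Socs3, Cish, another feedback inhibitor, stood at 6.01 FPKM at day 20 and 1.49 FPKM in fibroblasts, and the receptor gene Lifr at 18.3 FPKM at day 20 and 8.01 FPKM in fibroblasts. Stat3 itself stayed within 2-fold, at 40.5 FPKM at day 20 and 71.1 FPKM in fibroblasts.

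Most genes of DNA replication fell. Of 21 listed, all entered, 13 fell and none rose, with a median difference of -1.23. Tk1, the S-phase thymidine kinase, stood at 4.93 FPKM at day 20 and 28.6 FPKM in fibroblasts, 5.80-fold lower. The helicase gene Mcm5 stood at 8.89 FPKM at day 20 and 30.2 FPKM in fibroblasts, the helicase loader gene Cdc6 at 0.899 FPKM at day 20 and 4.88 FPKM in fibroblasts, and Pcna, the sliding clamp of DNA polymerases, at 48.7 FPKM at day 20 and 115 FPKM in fibroblasts. Some members stayed within 2-fold, among them Mcm2 at 32.5 FPKM at day 20 and 40.6 FPKM in fibroblasts. The 22 mitosis genes listed were all lower at day 20, but 4 of them passed 2-fold, with a median difference of -0.70. Mki67, the proliferation marker, stood at 13.3 FPKM at day 20 and 30.4 FPKM in fibroblasts, the checkpoint kinase gene Bub1 at 5.31 FPKM at day 20 and 12.6 FPKM in fibroblasts, and the kinesin gene Kif20a had a log2 difference of -1.03. Top2a, DNA topoisomerase II alpha, stood at 43.6 FPKM at day 20 and 88.2 FPKM in fibroblasts, and its difference was -0.98 with the median ratio of the libraries set to 1. The maintenance methyltransferase gene Dnmt1 and its partner Uhrf1, both highest in S phase, were the 2 that fell among the 5 of 9 DNA methylation genes that entered, Dnmt1 to 20.3 FPKM at day 20 against 48.2 FPKM in fibroblasts. In f/f cells Mki67 stood at 15.0 FPKM at day 20 and 47.3 FPKM in fibroblasts, and Tk1 at 10.2 FPKM at day 20 and 34.5 FPKM in fibroblasts.

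Histone genes of the Hist clusters were lower at day 20. Of 68 in the table, 46 entered, 35 of them fell and none rose, with a median difference of -1.59. Their sum was 169 FPKM at day 20 and 684 FPKM in fibroblasts, against 666 FPKM in f/f cells at day 20 and 705 FPKM in f/f fibroblasts. The histone H2A gene Hist1h2ak, whose promoter is printed above, stood at 5.02 FPKM at day 20 and 24.6 FPKM in fibroblasts. Histone H2B gene Hist1h2bn stood at 1.59 FPKM at day 20 and 10.7 FPKM in fibroblasts. Most of these messages end in a stem-loop and carry no poly(A) tail, while the RNA was selected by poly(A), so their level also reads how tails and selection differed, which was not tested. Many Hist genes are near-identical copies, so single values are uncertain, and the family was picked after its values were seen.

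A few genes of growth arrest rose, and most stayed within 2-fold. Of 20 p53 targets and cyclin-dependent kinase inhibitors listed, 19 entered, 3 rose and 1 fell, beside 4.43% and 3.75% of all genes entered. Of the 19, 14 were higher and 5 lower at day 20, with a median difference of 0.32 beside -0.02 over all genes. Gadd45a, a stress-induced growth arrest gene, stood at 159 FPKM at day 20 and 30.6 FPKM in fibroblasts, 5.21-fold higher. Bbc3, the pro-apoptotic PUMA, and Sesn2 rose by less (log2 differences 1.17 and 1.13), and Bax fell to 30.9 FPKM at day 20 against 67.6 FPKM in fibroblasts. Cdkn1a, the inhibitor p21, stood at 21.7 FPKM at day 20 and 14.5 FPKM in fibroblasts, and Cdkn2a, the locus of p16 and p19, at 239 FPKM at day 20 and 263 FPKM in fibroblasts, both within 2-fold. Of 20 genes of the Myc family and its targets, 19 entered and none rose or fell. The ribosomal protein genes listed were higher at day 20 in 20 of 20 cases, none by 2-fold, with a median difference of 0.54, and in 19 of 20 when values were divided by their sum. Of 80 genes in the table with cytosolic ribosomal protein symbols, copies and paralogs included, 76 entered, 70 were higher and 6 lower at day 20, and 1 rose, Rps27, by a log2 difference of 1.30. For example, Rpl3 stood at 1710.3 FPKM at day 20 and 1021 FPKM in fibroblasts, and Rps2 at 1375 and 1325 FPKM at the same stages.

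Stress and early response genes rose in part. Of 18 genes of the integrated stress response listed, 16 entered, 6 rose and none fell, with a median difference of 0.59. Over all genes entered, 4.43% rose and 3.75% fell. Trib3, a pseudokinase induced by ATF4 and CHOP, stood at 75.7 FPKM at day 20 and 14.4 FPKM in fibroblasts, 5.26-fold higher. Ddit3, the gene of CHOP, stood at 162 FPKM at day 20 and 67.3 FPKM in fibroblasts, and Atf4 at 559 FPKM at day 20 and 279 FPKM in fibroblasts. Atf4 lay at the limit and came to 0.89 on the log2 scale when values were divided by their sum. Chac1, which degrades glutathione, stood at 55.5 FPKM at day 20 and 16.7 FPKM in fibroblasts, and Vldlr had a log2 difference of 1.56. Amino acid synthesis genes of the same list stayed within 2-fold, with Asns at 181 FPKM at day 20 and 125 FPKM in fibroblasts. Of 17 immediate early genes, all entered, 8 rose and 1 fell, beside the same shares of all genes, with a median difference of 0.68. Egr1 stood at 388 FPKM at day 20 and 156 FPKM in fibroblasts, Ier2 at 67.0 FPKM at day 20 and 24.9 FPKM in fibroblasts and Fos at 48.7 FPKM at day 20 and 21.1 FPKM in fibroblasts. Fosb, Maff, Fosl1, Egr2 and Egr3 rose by log2 differences of 1.03 to 1.46, and Atf3 fell, by a log2 difference of -1.01. Atf3 and the smallest of these increases lay close to the 2-fold limit. Larger decreases were seen in immediate early genes outside the list, picked after their values were seen. Nr4a3 fell to 6.98 FPKM at day 20 against 38.1 FPKM in fibroblasts, and Dusp1 to 29.1 FPKM at day 20 against 102 FPKM in fibroblasts. Genes of this kind respond within minutes to handling and serum, and the handling of the cultures is not given in the sources used here.

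Feedback genes of growth factor signalling rose in part. Of 17 genes of the FGF and ERK pathway listed, 16 entered, 6 rose and none fell, with a median difference of 0.49. Over all genes entered, 4.43% rose and 3.75% fell. Etv1, an ETS factor downstream of ERK, stood at 10.1 FPKM at day 20 and 1.83 FPKM in fibroblasts, and Spry4, an inhibitor of receptor signalling, at 7.55 FPKM at day 20 and 1.43 FPKM in fibroblasts. The ERK phosphatase genes Dusp4, Dusp5 and Dusp6 rose by log2 differences of 1.21, 1.71 and 1.05, and Etv5 by 1.17. Of 13 targets of YAP and TEAD, 12 entered, 4 rose and none fell, beside the same shares of all genes, with a median difference of 0.42. Cyr61, a secreted matricellular protein, stood at 1139 FPKM at day 20 and 313 FPKM in fibroblasts, and its relative Ctgf at 112 FPKM at day 20 and 21.7 FPKM in fibroblasts, 5.16-fold higher. Ankrd1, an ankyrin-repeat protein of muscle and stretched cells, stood at 123 FPKM at day 20 and 30.9 FPKM in fibroblasts, and Ajuba at 30.2 FPKM at day 20 and 13.9 FPKM in fibroblasts. Of 19 actin and smooth muscle genes listed, 18 entered, 3 fell and none rose, with a median difference of -0.32. They were Cnn1, calponin, at 42.6 FPKM at day 20 and 240.3 FPKM in fibroblasts, Acta2, smooth muscle actin, at 705 FPKM at day 20 and 1575 FPKM in fibroblasts, and Lmod1 (log2 difference -1.37). Acta2 stood at 174 FPKM in f/f cells at day 20 and 1544 FPKM in f/f fibroblasts.

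The other signalling lists were mixed. Of 18 TGF-beta and BMP targets, 15 entered, 3 rose and 2 fell. Tgfbi, a matrix protein induced by TGF-beta, stood at 48.8 FPKM at day 20 and 14.1 FPKM in fibroblasts, and Inhba and Grem1 rose by log2 differences of 1.21 and 1.16. Id2, a target of BMP signals, fell to 5.51 FPKM at day 20 against 19.3 FPKM in fibroblasts, and the activin antagonist Fst fell to 5.37 FPKM at day 20 against 14.2 FPKM in fibroblasts. Of 18 Wnt pathway genes, 12 entered, 3 rose and 1 fell. The ligand gene Wnt5a stood at 24.7 FPKM at day 20 and 9.20 FPKM in fibroblasts, the G1 cyclin gene Ccnd1 at 19.8 FPKM at day 20 and 8.70 FPKM in fibroblasts, and Wnt6 had a log2 difference of 1.25. Dkk3 fell to 16.7 FPKM at day 20 against 57.9 FPKM in fibroblasts. Of 26 cytokine and inflammation genes, 15 entered, 4 rose and 1 fell. Vcam1, a leukocyte adhesion molecule, stood at 34.4 FPKM at day 20 and 4.14 FPKM in fibroblasts, and the chemokine gene Ccl7 rose by a log2 difference of 1.56. Tnfaip3, a feedback inhibitor of NF-kappaB, and Ptx3 rose by log2 differences of 1.68 and 1.04, while Il6 fell to 4.91 FPKM at day 20 against 19.5 FPKM in fibroblasts. Of 31 interferon response genes, 20 entered, 2 rose and 2 fell. Those that rose, Psmb8 and Tap1 (log2 differences 1.87 and 1.68), act in antigen processing, and those that fell were Ifit1 and Cxcl10 (-1.56 and -1.16).

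Glycolysis and hypoxia genes rose in part, while respiratory chain and cholesterol genes were mostly lower by less than 2-fold. Of 23 hypoxia and glycolysis genes, 22 entered, 8 rose and none fell, with a median difference of 0.45. Over all genes entered, 4.43% rose and 3.75% fell. Ndrg1, a gene induced by low oxygen, stood at 240.1 FPKM at day 20 and 64.2 FPKM in fibroblasts, the glycolytic enzyme gene Gpi1 at 847 FPKM at day 20 and 284 FPKM in fibroblasts, and Vegfa, the endothelial growth factor, at 80.3 FPKM at day 20 and 32.0 FPKM in fibroblasts. Adm, Egln3, Bnip3, Car9 and Pgk1 rose by log2 differences between 1.03 and 1.82, of which Bnip3 and Pgk1 came to 0.98 and 0.92 when values were divided by their sum. Vegfa in f/f cells stood at 55.8 FPKM at day 20 and 19.9 FPKM in fibroblasts. Of 21 respiratory chain genes, 20 were lower at day 20, and none passed 2-fold, with a median difference of -0.33. Of 15 cholesterol synthesis genes, 14 were lower at day 20, with a median difference of -0.47. Of 17 adipogenic genes, 10 entered and 4 rose: Fabp4, a fatty acid binding protein, to 4.73 FPKM at day 20 against 0.367 FPKM in fibroblasts, Cebpa, and by less Lpl and Klf15. The adipocyte markers Adipoq and Plin1 were below 1 FPKM in both libraries, and the 3 adipocyte markers summed to 4.88 FPKM at day 20 and 0.367 FPKM in fibroblasts. At higher levels, Akr1b8, an aldo-keto reductase, stood at 144 FPKM at day 20 and 27.6 FPKM in fibroblasts, and Fabp5 at 124 FPKM at day 20 and 27.8 FPKM in fibroblasts.

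**Figure D4:**
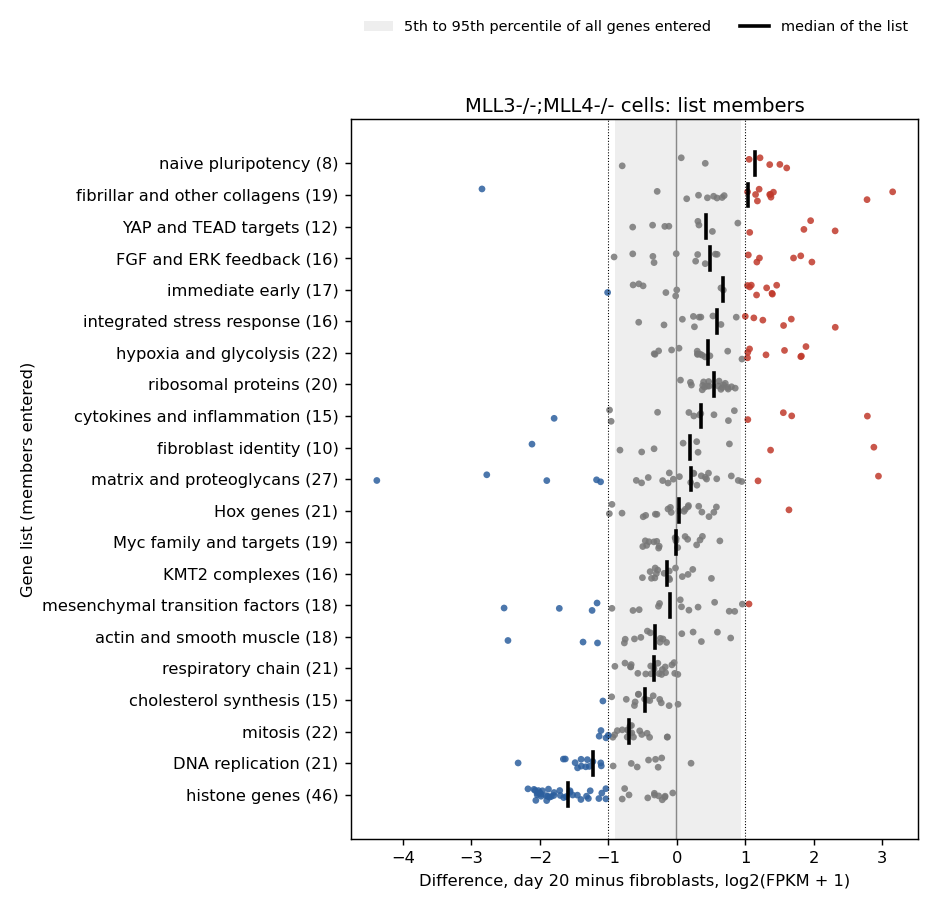
Difference of day 20 minus fibroblasts, log2(FPKM + 1), of each member entered (points) and the median (black bar) of 20 gene lists and the histone genes, with red points at least 2-fold up and blue points at least 2-fold down. The grey band holds the middle 90% of all genes entered. The medians of naive-state genes (1.14), collagens (1.03), DNA replication (-1.23) and histone genes (-1.59) lie outside the band. The naive-state median rests on 8 of 18 genes, and with no filter on low values it and the collagen median came under 2-fold.

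Hox genes, KMT2 complexes and chromatin regulators held few changes. The imprinted, IGF system, bone and housekeeping lists held a larger share than the 8.18% of all genes entered that rose or fell, in lists of at most 15 genes entered. Of 34 Hox genes, 21 entered and 1 rose, Hoxc8, with 27.9 FPKM at day 20 and 8.26 FPKM in fibroblasts. Hoxa7 (3.61 FPKM at day 20 and 8.13 FPKM in fibroblasts) lay close to 2-fold, and passed it when values were divided by their sum, while Hoxa5 did not (log2 difference -0.80, and -0.95 when divided by the sum). Of 18 imprinted genes, 15 entered, 2 rose (Dlk1 and Plagl1) and 1 fell (H19), while Igf2, the neighbour of H19, stood at 506 FPKM at day 20 and 609 FPKM in fibroblasts. Of 14 genes of the IGF system, 11 entered, with Igfbp3 and Igfbp4 rising and H19 and the receptor gene Igf1r falling, Igf1r to 39.6 FPKM at day 20 against 89.2 FPKM in fibroblasts. All 16 members of the KMT2 complexes listed entered and stayed within 2-fold, between -0.50 and 0.51, with 12 lower and 4 higher at day 20. Of 24 chromatin regulators, 1 fell, the deacetylase gene Hdac1, with 27.4 FPKM at day 20 and 62.7 FPKM in fibroblasts. Of the 24, 20 were lower and 4 higher at day 20, with a median difference of -0.20 beside -0.02 over all genes. Of 13 cartilage and bone genes, 5 entered and 2 rose, Spp1 and the bone factor gene Runx2, at 25.9 FPKM at day 20 and 8.09 FPKM in fibroblasts. Of 14 housekeeping genes, Pgk1 rose and 3 fell, among them Polr2a, the large subunit of RNA polymerase II, at 16.2 FPKM at day 20 and 45.6 FPKM in fibroblasts, and Gusb and Tfrc (log2 differences -1.40 and -1.20). The myogenic, endothelial and blood, macrophage, trophoblast, primitive streak and germline lists had at most 3 members entered each, and none of those rose or fell. The 4 macrophage markers summed to 4.56 FPKM at day 20 and 2.90 FPKM in fibroblasts, nearly all of it Cd68, and the 3 endothelial markers to 0.0442 FPKM at day 20 and 0.0096 FPKM in fibroblasts. The 4 smooth muscle markers summed to 1263 FPKM at day 20 and 2427 FPKM in fibroblasts, and the part of such cells in the decreases named here was not tested.

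The response of DKO cells overlapped in part with that of f/f cells, and the 2 comparisons share no library. Of 11494 genes entered in both, 450 rose in DKO and 536 in f/f cells, and 131 rose in both, which is 29.1% of the DKO increases and 24.4% of the f/f increases. Of all 11494 genes, 4.66% rose in f/f cells and 3.92% in DKO cells. In the other direction 427 fell in DKO and 628 in f/f cells, and 148 fell in both, which is 34.7% of the DKO decreases and 23.6% of the f/f decreases, beside 5.46% of all these genes falling in f/f cells and 3.71% in DKO cells. A further 27 genes rose in DKO and fell in f/f cells, and 23 (5.39% of the DKO decreases) fell in DKO and rose in f/f cells. These are near the shares of all 11494 genes that fell or rose in f/f cells, so the opposite direction is described for single genes only. Across genes, Pearson's r between the differences was 0.31, as a description. Among the genes named here that ran in opposite directions were the YAP targets Ctgf, Ankrd1 and Cyr61. Ctgf stood at 33.6 FPKM in f/f cells at day 20 and 192 FPKM in f/f fibroblasts, Ankrd1 at 2.56 and 42.2 FPKM and Cyr61 at 122 and 429.9 FPKM at the same stages. Col12a1 stood at 536 FPKM in f/f cells at day 20 and 98.6 FPKM in f/f fibroblasts, the reverse of the DKO order. H19 stood at 1712 FPKM in f/f cells at day 20 and 704 FPKM in f/f fibroblasts. The fibroblast libraries of the genotypes already differed in some of these genes, since Ctgf was 21.7 FPKM in DKO fibroblasts and 192 FPKM in f/f fibroblasts.

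**Figure D5:**
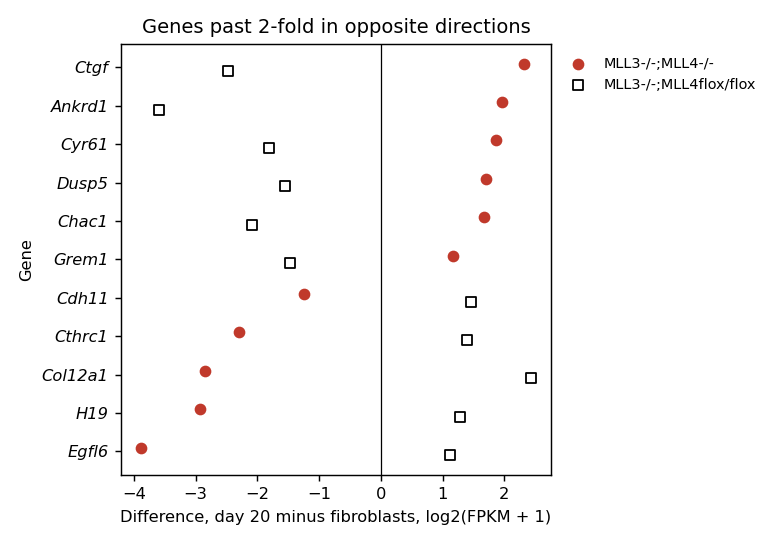
Difference of day 20 minus fibroblasts, log2(FPKM + 1), in DKO cells (filled) and f/f cells (open squares) for the 11 named genes past 2-fold in opposite directions, 1 library a group. Ctgf, Ankrd1, Cyr61, Dusp5, Chac1 and Grem1 rose in DKO cells, and Cdh11, Cthrc1, Col12a1, H19 and Egfl6 fell.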

How the data were processed

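Per the labels' protocols, RNA was selected on Dynabeads by its poly(A) tail, and libraries were made with an Illumina TruSeq kit. The authors deposited 1 FPKM value per Entrez gene and library, per the file headers. mm9, CASAVA 1.8.2 and SICER are named in the submitters' processing notes. Aligner, annotation and strand setting are not stated there, so values of genes that overlap, face each other or have close copies are uncertain. The deposited read counts and RPKM values per transcript of other libraries in the series were used for transcript lengths only. With those lengths, low FPKM values gave the depth, and 90.2% and 91.3% of low genes at day 20 and in fibroblasts were whole reads within 0.02 reads. Differences are log2(FPKM + 1) at day 20 minus fibroblasts over genes with a mean of at least 1 FPKM, on FPKM values as the authors scaled them. With 1 library a side there is no test and no p-value. Ratio intervals are exact (Clopper-Pearson, conditional on the summed reads). The gene comparison was run on simulated reads with planted 4-fold changes and counting error only. Such changes pass 2-fold almost by construction, so the run does not check the spread between cultures. Promoters come from RefSeq tables for GRCm38.p6, matched by gene, and mm9 coordinates were not used. The 46 gene lists held 822 entries, all found in the table. The lists, motifs and rules were chosen with earlier results of these data known. Those results were also known when the members were picked by their labels. The text names the targeted and delivered genes, the 15 largest changes each way, from each list the 4 members with the largest differences or those called where at most 8 were, the 5 highest genes of each library and the 5 largest changes each way at 100 FPKM or more. Other genes named were chosen after their values were seen. Genes with clone or numbered names were counted and not named. A gene that the rule would name is not reported here. Alternatives were other pseudocounts, filters and scalings, of which 1 scaling was added after seeing the data. The 24 chromatin and input samples were not used. Python 3.11.15, pandas 2.3.3, numpy 2.4.6, scipy 1.17.1 and matplotlib 3.10.9 were used.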

Additional observations from a re-analysis of the deposited data

Results flagged for a closer look

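Some named genes were past 2-fold in opposite directions in the genotypes, each with 1 library a stage, and the difference between genotypes was not tested. Values are differences of day 20 minus fibroblasts on the log2(FPKM + 1) scale, in DKO and then in f/f cells. Of the genes that rose in DKO cells, Ctgf differed by 2.31 in DKO and -2.48 in f/f cells, Ankrd1 by 1.96 in DKO and -3.60 in f/f cells, and Cyr61 by 1.86 in DKO and -1.81 in f/f cells. Dusp5 differed by 1.71 in DKO and -1.55 in f/f cells, Chac1 by 1.67 in DKO and -2.09 in f/f cells, and Grem1 by 1.16 in DKO and -1.47 in f/f cells. Of the genes that fell in DKO cells, Egfl6 differed by -3.89 in DKO and 1.12 in f/f cells, H19 by -2.92 in DKO and 1.28 in f/f cells, and Col12a1 by -2.85 in DKO and 2.43 in f/f cells. Cthrc1 differed by -2.29 in DKO and 1.40 in f/f cells, and Cdh11 by -1.24 in DKO and 1.45 in f/f cells.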

How the results depend on the processing

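With 1 library a side, no library could be left out, and counting error is the only error that depth gives. No paired analysis was possible because each stage has 1 library. Against 524 increases and 444 decreases, a pseudocount of 5 gave 191 and 137, a pseudocount of 0.1 gave 709 and 697, and a mean of at least 5 FPKM gave 316 and 292. The larger pseudocount kept all 11830 genes and shrinks differences of low genes by construction, while the stricter filter left 8682 genes. Values divided by their sum (TPM) gave 638 increases and 877 decreases among 13031 genes. Scaling day-20 values to the fibroblast sum, chosen after seeing the data, gave 408 and 582, and there Jam2, Ajuba, Ccnd1, Dusp6, Lifr, Ptx3, Car9 and Klf15 came under 2-fold, with log2 differences between 0.92 and 0.99. No filter, median ratio scaling, upper quartile scaling, scaling without the 50 highest genes and the scaling to the fibroblast sum gave counts within 1.5 times of 524 and 444. Of 2177 values of 247 gene and list differences under these settings, 78 came under 2-fold, 28 passed it and 0 changed direction past it.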
